A study of Mus musculus with 8 samples.

Results

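The m6A peaks of chromatin modifiers and remodelers were examined in mouse embryonic fibroblasts (MEFs) with and without nutrient starvation. The genes were chosen by symbol: every peak whose gene symbol begins with Kdm, Kmt, Setd, Hdac, Smarc, Dnmt, Arid or Sirt, or with Brd, Chd, Tet or Kat followed by a digit, and the peaks of Ep300, Crebbp, Ezh1, Ezh2, Nsd1, Asxl1 and Asxl2. The rule uses symbols and no measured value, but it was set with earlier results of these data known. It found 716 of the 38705 peaks in the 4 peak lists, and these peaks lay in 88 of the 9779 genes with any peak. Peaks of different libraries that shared at least 1 bp were merged, which gave 372 regions of these genes among 21168 regions in all.

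Methylated RNA immunoprecipitation sequencing (MeRIP-seq) was applied to polyA RNA of wild type C57BL/6 MEFs, which are primary cells taken from embryos at day 13.5 and used here at passages 5 to 6. The control group was left untreated in complete medium, and the starved group was kept for 2 h without nutrients, in HBSS buffered with HEPES. Each group had 2 replicates, and each replicate gave an input library and a library immunoprecipitated (IP) with an m6A antibody, 8 samples in all. The question was how m6A along mRNA differs between fed and nutrient-deprived cells. The study calls its replicates biological, while nothing in the labels ties them to separate embryos or cultures, so tests measure only the spread between these libraries. Each value is a fold enrichment, the IP signal of a peak over the signal of the matching input, as the authors' peak caller gave it. These are bulk libraries, so a change in the m6A of each transcript and a change in the cells or RNA that the library holds cannot be told apart.

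N6-methyladenosine (m6A) is written on nascent mRNA by the METTL3 and METTL14 methyltransferase complex, mostly at an adenosine in a GGAC or related motif, and reader proteins of the YTH family then act on the stability and translation of the marked mRNA. Long internal exons and the stretch around the stop codon are where the mark is best known to gather. Chromatin modifiers write, remove and read methyl and acetyl groups on histones and DNA, and remodelers use ATP to move nucleosomes. Many of these proteins are encoded by long mRNAs with large coding exons, and several of them take metabolites such as acetyl-CoA, S-adenosylmethionine and NAD as substrates.

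The peak lists held 8974 to 10103 peaks per library, and no read totals are in them, so the depth behind each value is unknown. Fibroblast markers were partly represented: 4 or 5 of 10 had a peak in each library, among them Col1a2, Col3a1 and Fn1, while Vim, Col1a1, Lum and Dcn had none in any. Of the other lists, 0 to 2 of 5 epithelial, 1 of 5 endothelial, 0 or 1 of 5 macrophage and 3 of 5 neural markers had a peak in each library. A peak needs both RNA and m6A, so a gene without one may still be expressed. The neural genes Sox2, Nes, Map2 and Tubb3 were the ones with a peak in at least 1 library, and their part in the results was not tested. Peaks on the Y chromosome numbered 2 and 3 in the controls and 1 and 0 in the starved libraries, and Xist had no peak in any library.

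The motif nearest the centre of the peak is shown for the regions on which the comparisons below turn. Each sequence has 21 bases from the GENCODE M21 transcript, which were identical in the GRCm38 (mm10) genome, and is written in the sense of the mRNA with the motif in capitals. The motif is GGAC where the 200 bases around the peak centre hold one, and otherwise DRACH, an adenosine and cytosine preceded by A or G, with any base but C before and any base but G after. These are letters in a window and not mapped m6A sites. The first group had higher fold enrichment in both starved libraries than in both control libraries.
Kdm4b, 3′UTR, chr17:56402342-56402362, plus strand: gtgacacaGGACgcagacttc
Arid1b, CDS, chr17:5341645-5341665, plus strand: gcctccgtGGACcccaaggag
Setd1b, CDS, chr5:123148417-123148437, plus strand: cgtgagcaGGACtcagacacc
Kat2a, 3′UTR, chr11:100704909-100704929, minus strand: cagggccaGGACtattcagtg
Crebbp, CDS, chr16:4084857-4084877, minus strand: atccccagGGACaagctctga
Setd2, CDS, chr9:110573927-110573947, plus strand: ggcaaagaGGACcttgatcag
Kat6a, CDS, chr8:22932342-22932362, plus strand: tgtggatgAGACActatccgc

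The second group had lower fold enrichment in both starved libraries than in both control libraries.
Brd9, CDS, chr13:73938955-73938975, plus strand: ccacccccAGACCgaccagtg
Arid4b, CDS, chr13:14187358-14187378, plus strand: atctctgcGGACaactagttt
Chd1, CDS, chr17:15731984-15732004, plus strand: cacatgggAGACAgaagagac
Kmt2a, CDS, chr9:44820962-44820982, minus strand: cttcacgcGGACtgtgatttc
Chd4, CDS, chr6:125105284-125105304, plus strand: aagaacaaGGACcctaagttt

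The third group had a peak in both libraries of 1 condition and in neither library of the other. Kdm2b, Kmt2d and Ep300 were found in the starved libraries, and Kdm7a, Arid4a and Chd9 in the controls.
Kdm2b, 3′UTR near the stop codon, chr5:122871586-122871606, minus strand: agactacaGGACacagttctg
Kmt2d, CDS, chr15:98839484-98839504, minus strand: atgccatcGGACagctgctcc
Ep300, CDS, chr15:81643127-81643147, plus strand: aggagcttGAACAggaagagg
Kdm7a, CDS, chr6:39144467-39144487, minus strand: cattgtgtGGACagcaatagc
Arid4a, CDS, chr12:71067169-71067189, plus strand: gaaaataaGGACgcaggtgat
Chd9, CDS, chr8:91026764-91026784, plus strand: ataaaaacAGACAcatccagc

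Chromatin genes carried 176 and 172 peaks in the controls against 197 and 171 after starvation. These were 1.74% (95% Wilson interval 1.505 to 2.02), 1.74% (1.502 to 2.02), 2.02% (1.76 to 2.32) and 1.91% (1.64 to 2.21) of all peaks. The intervals overlap, and they cover counting error only. The means were 174 ± 2.83 and 184 ± 18.4 (SD, n = 2), a difference of 10 peaks (two-sided exact permutation test, p = 1, where the smallest p this design allows is 0.333), and without starved IP 1 the difference was -3 peaks. All peaks together averaged 9987 in the controls and 9365.5 in the starved libraries. The number of chromatin genes with a peak was 76 and 71 in the controls and 71 and 67 in the starved libraries.

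The median fold enrichment of the chromatin gene peaks was 12.8 and 13.5 in the controls and 13.8 and 14.6 in the starved libraries. Both starved values lay above both control values, with a difference of 0.11 on the log2 scale (exact permutation test, p = 0.333). The median over all peaks was 12.2 and 12.3 in the controls and 14.6 and 14.7 in the starved libraries, a difference of 0.26 on the log2 scale. When the same number of best-scoring peaks was taken from each library, the difference of the chromatin genes turned to -0.045. No value over all peaks is given for that setting. In the full lists, the median of the chromatin genes was above that of all peaks in both controls and below it in both starved libraries. In starved IP 2 the margin was narrow, at 14.59 against 14.69. The share of chromatin gene peaks at the limit of the caller's score was 18.8% and 12.2% in the controls and 27.4% and 28.1% after starvation, and over all peaks 17.0% and 13.2% against 28.5% and 27.8%.

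Most peaks of chromatin genes lay in coding sequence, a larger share than over all peaks. The coding sequence (CDS) held 67.65% and 69.1% of the placed chromatin gene peaks in the controls and 72.0% and 72.1% in the starved libraries, against a mean of 45.5% ± 1.31 in the controls and 46.2% ± 0.863 in the starved libraries for all peaks (SD, n = 2). The window within 100 nt of the stop codon held 7.75% ± 1.53 in the controls and 7.38% ± 0.707 after starvation, against 12.9% and 12.5% of all peaks. The 3′UTR held 21.5% ± 1.24 and 18.7% ± 0.190, against 37.0% and 36.3%. Between conditions, the CDS share differed by 3.67 percentage points and the 3′UTR share by -2.83 (exact permutation test, p = 0.333 for each), and in neither did the groups overlap. The stop codon share differed by -0.367 percentage points (exact permutation test, p = 1), and it turned to 0.712 without control IP 1 and to 0.134 without starved IP 1. With a window of 200 nt in place of 100 nt, the difference was -2.84 percentage points (exact permutation test, p = 0.333, the smallest that this design allows).

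Exon types were split in the same direction. Internal exons held 57.3% ± 0.366 of the chromatin gene peaks in the controls and 62.2% ± 4.02 in the starved libraries (SD, n = 2), against 31.7% and 32.2% of all peaks, and the last exon held 39.7% and 34.9% against 60.8% and 60.0%. Internal exons longer than 1000 nt, such as those of Kmt2a, Nsd1 and Setd2, held 16.1% and 18.4% of the chromatin gene peaks and 7.39% and 7.59% of all peaks. The transcripts are themselves long: the median length was 5922 nt for the chromatin genes and 3421 nt for all genes with a peak, and the median coding length 3786 nt against 1482 nt. The part of coding length in the placement was not tested.

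**Figure D1:**
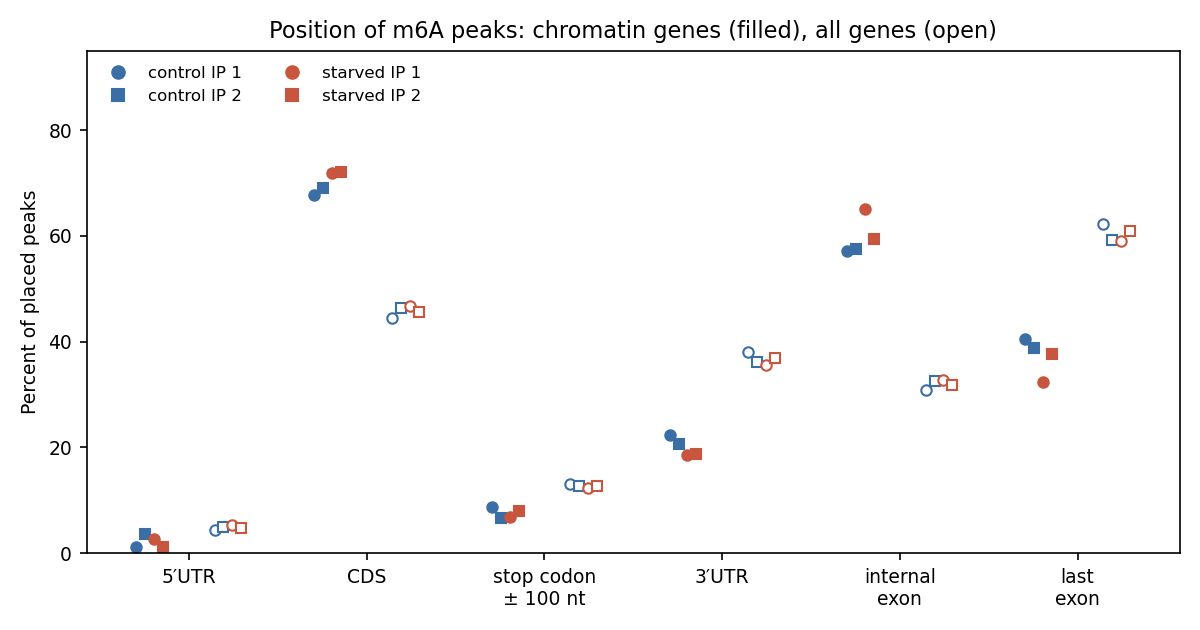
Percent of placed peaks (y axis) in each transcript segment and exon type (x axis) for chromatin genes (filled markers) and all genes (open markers), with blue for control and red for starved libraries and circles and squares for replicates 1 and 2. In all 4 libraries the chromatin genes sit above all genes in the CDS, at 67.65% to 72.1%, and below them in the 3′UTR.

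The GGAC motif was present in the 200 bases at the centre of 62.9% and 61.2% of the placed chromatin gene peaks in the controls and of 64.0% and 67.9% in the starved libraries. The groups did not overlap, with a difference of 3.87 percentage points (exact permutation test, p = 0.333), and all peaks had 62.7% in the controls and 64.6% in the starved libraries. The wider DRACH motif, which also matches GGAC followed by A, C or T, was in 97.4% to 100% of the windows of chromatin genes and 98.1% to 98.5% of all windows. Its difference between conditions was -1.63 percentage points. Only the strand of the transcript was searched.

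Chromatin genes more often had a peak in every library than genes in general. The same held for the partner genes taken up below, with 52 of the 113 symbols that had a peak. The part of transcript length in this was not tested. A peak was present in all 4 libraries for 52 of the 88 genes, 59.1%, against 29.2% of all genes with a peak, and 9 genes (10.2%, against 27.9% of all genes with a peak) had a peak in 1 library only, among them Hdac2, Hdac9, Hdac10, Smarca2 and Smarca5. The median gene had 4 regions against 2 over all genes, and 0.647 regions per kb of transcript against 0.559. By region, 207 were called in 1 library, 74 in 2, 38 in 3 and 53 in all 4. Regions called in 1 library made up 55.6%, against 56.2% of all regions. The regions called in all 4 libraries made up 14.2% against 10.7% of all regions. Their median fold enrichment was 18.9, and it was 16.6, 15.2 and 12.1 for regions called in 3, 2 and 1 libraries. Over all regions the corresponding medians were 20.7, 14.4, 12.97 and 13.1.

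The genes with the most regions were Kmt2a and Kmt2d with 11 each, Kmt2c with 10, and Kat6a and Kdm3b with 9 each, as had Setd1b and Tet3. Kmt2a, a methyltransferase that maintains active promoters of developmental genes, had 7 peaks in each control and in starved IP 1 and 8 in starved IP 2, and 4 of its regions were called in all 4 libraries. Kmt2d, an enhancer methyltransferase with the longest coding sequence of these genes at 16767 nt, had 3 and 4 peaks in the controls and 8 and 7 in the starved libraries. None of its regions was called in all 4 libraries (10.7% over all regions). Kmt2c, its close relative, had 4 and 3 peaks against 7 and 2. Most regions of these genes were thus called in some libraries and not in others, with little regard to condition in Kmt2a and more often after starvation in Kmt2d.

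**Figure D2:**
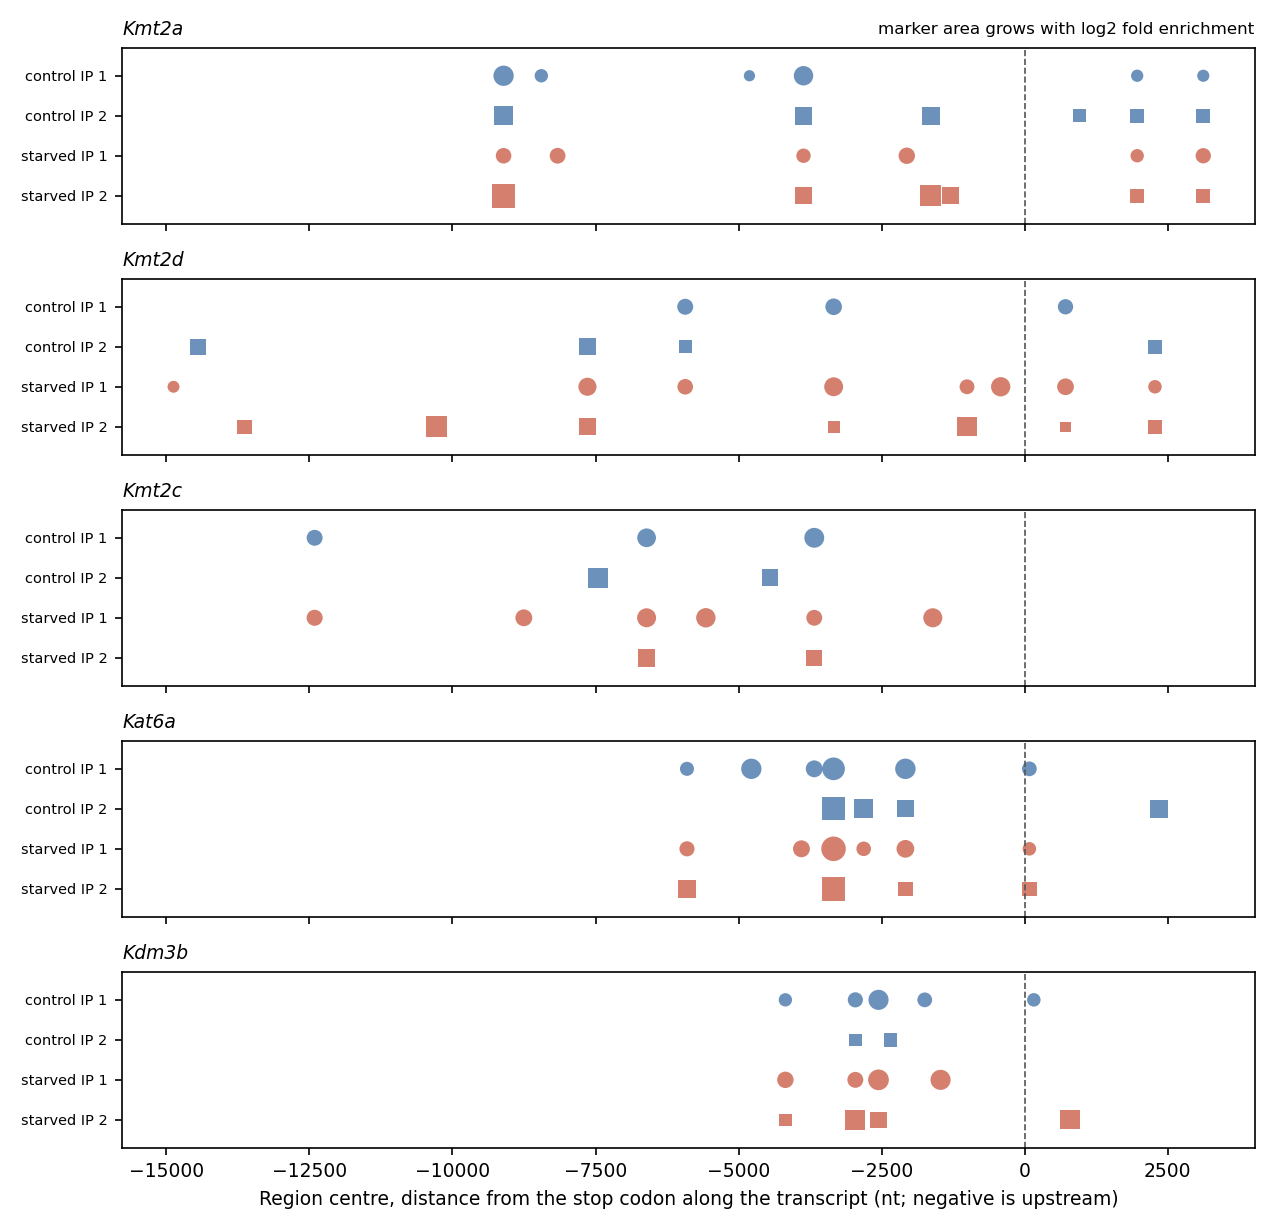
Centres of the placed m6A regions along the 5 transcripts with the most regions (x axis, distance from the stop codon in nt, negative upstream; dashed line, stop codon) in each of the 4 libraries (y axis), with marker area growing with log2 fold enrichment. Kmt2a has 4 positions marked in every library, while Kmt2d and Kmt2c have none.

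Among regions with a peak in all 4 libraries, 53 of the 2257 belonged to chromatin genes. Both starved values lay above both control values in 14 of the 53 (26.4%, against 22.9% of all such regions) and below them in 7 (13.2%, against 18% of all). The medians of the libraries over these regions stood 0.21 higher on the log2 scale after starvation. Once each library was centred on its median, the chromatin genes had 13 regions above (24.5%, against 18.1% of all) and 13 below (24.5%, against 23.4% of all). Without the peaks that had exactly the ends of an annotated exon, 4 of the 39 regions left were below (10.3%, against 17% of all). Leaving out each library in turn loosens the rule, and gave 19 to 24 above (35.8% to 45.3%, against 35% to 40% of all) and 12 to 18 below (22.6% to 34%, against 29.1% to 35.4% of all). The median log2 difference was 0.10 for the chromatin genes and 0.10 for all 4-library regions. The starved mean was higher in 31 of the 53 (58.5%, against 54.2% of all) and lower in 22 (1034 of the 2257 over all). In limma, with Benjamini-Hochberg adjustment over all 2257 regions, 0 chromatin gene regions and 0 of all regions (0%) passed an adjusted p of 0.05, and the smallest adjusted p of a chromatin gene region was 0.466. With 2 libraries per group, a p that misses the threshold does not show that a region stayed the same. At an unadjusted p under 0.05 there were 4 regions of chromatin genes (7.55%, against 8.51% of all), in Kdm4b, Brd9, Arid1b and Arid4b. The replicate SD of log2 fold enrichment had a median of 0.73 in these regions.

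**Figure D3:**
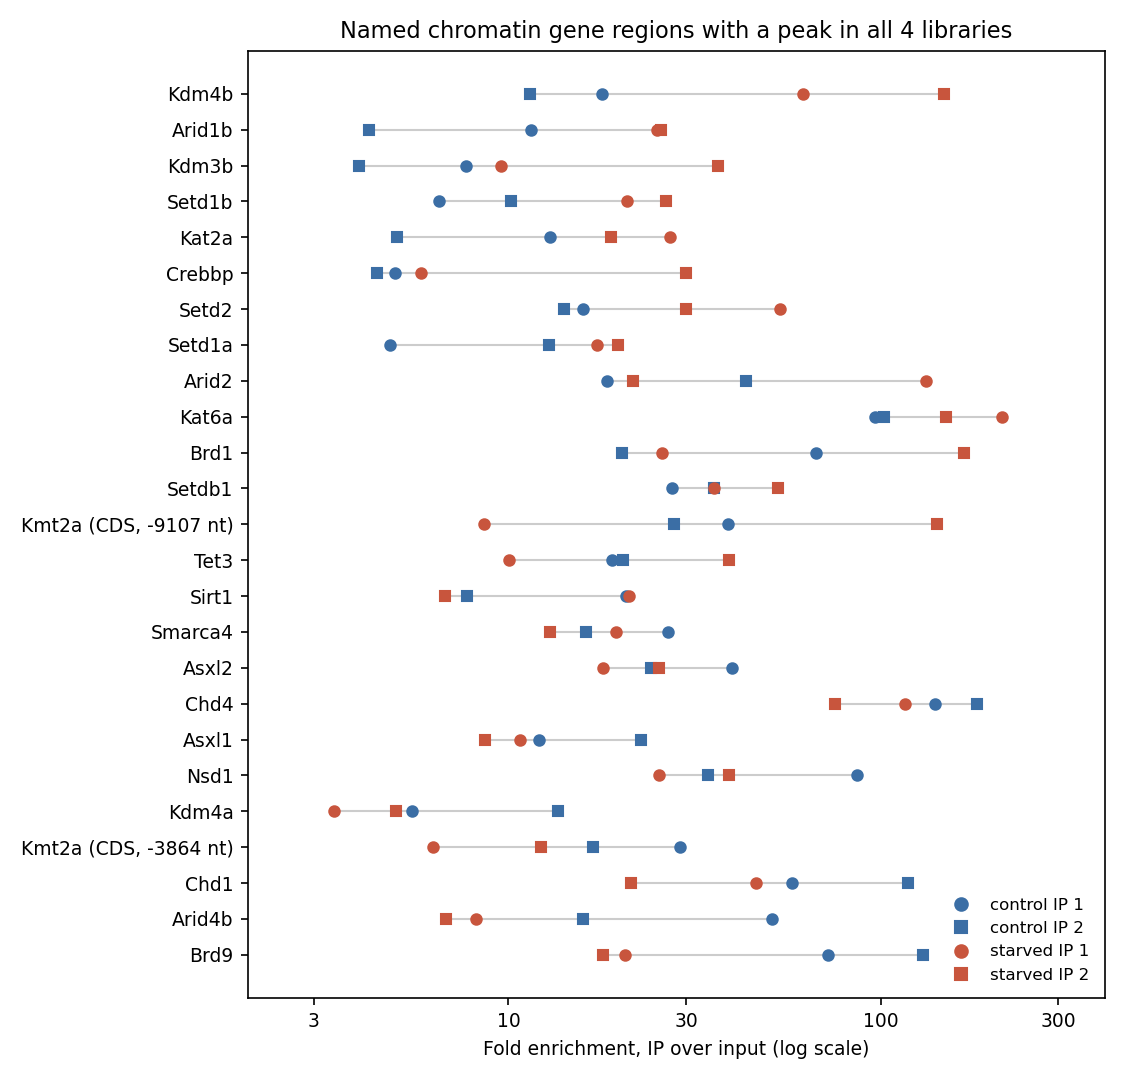
Fold enrichment of IP over input (x axis, log scale) of the named regions with a peak in all 4 libraries (y axis, ordered by log2 difference from the highest at the top), with control libraries in blue and starved libraries in red. At the top Kdm4b has starved values of 61.8 and 148 beside control values of 17.9 and 11.4, and at the bottom Brd9 has starved values of 20.5 and 17.99 beside control values of 72.1 and 130.

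A peak found in both libraries of 1 condition and in neither of the other was the second kind of difference. Chromatin genes had 16 such regions after starvation, 4.3% of their regions against 3.2% of all regions, and 9 in the controls, 2.42% against 4.15%. The starved-only regions lay in 16 genes and had mean fold enrichments from 4.98 to 112, with a median of 17.8. The control-only regions lay in 8 genes and ran from 12.7 to 135 with a median of 40.9. A peak with exactly the ends of an annotated exon was part of 5 of the 9 control-only regions and 3 of the 16 starved-only regions. No count of reads is given where a peak was not called, so these regions have no fold change and no test. With any library left out the rule is looser, and 23 to 80 starved-only (6.18% to 21.5%, against 5.86% to 17.4% of all regions) and 16 to 62 control-only regions (4.3% to 16.7%, against 6.98% to 18.9%) were then counted.

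**Figure D4:**
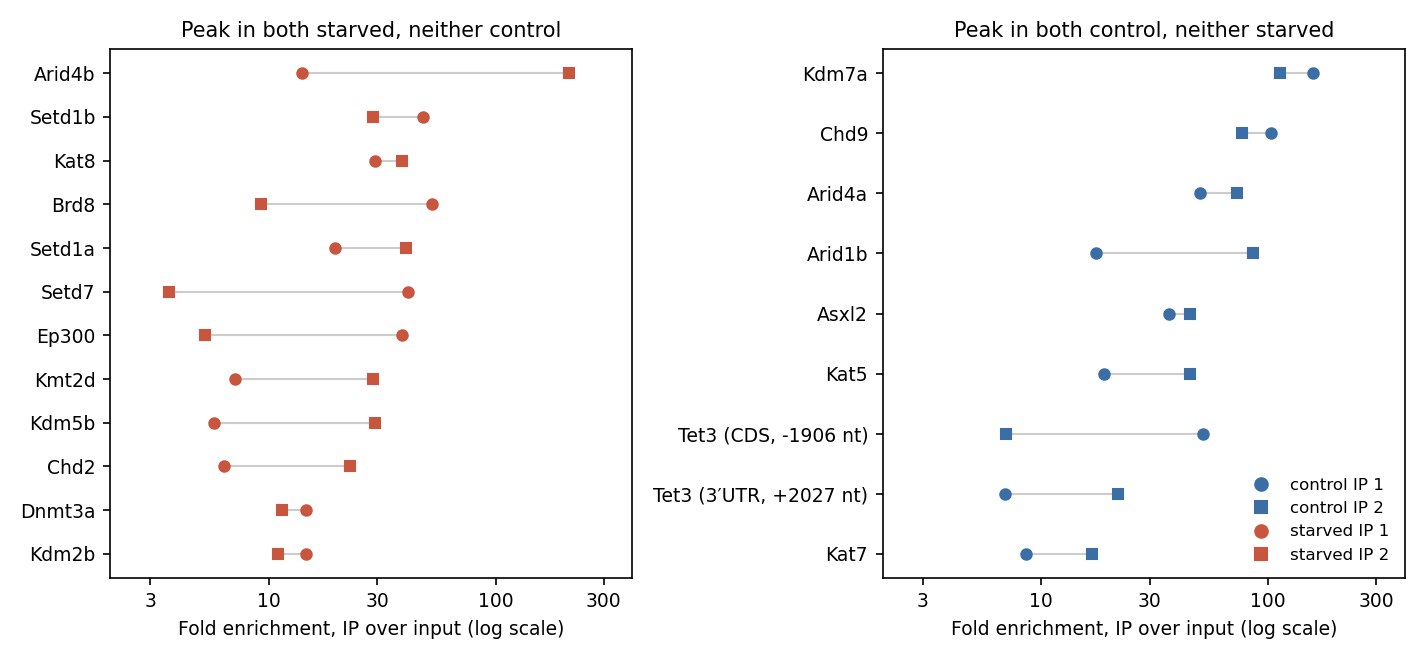
Fold enrichment of IP over input (x axis, log scale) in the 2 libraries of the condition in which each region was called: 12 starved-only regions with the highest mean on the left (red) and all 9 control-only regions on the right (blue). Kdm7a is highest among the control-only regions at 157 and 113, and Arid4b among the starved-only regions at 13.9 and 211.

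Histone demethylases of the Kdm group, which remove methyl groups from histone lysines with flavin or with iron and 2-oxoglutarate, had 58 regions in 16 genes, and their peaks numbered 27 and 24 in the controls and 30 and 26 after starvation. Kdm4b, a Jumonji demethylase that acts on methyl marks of repressed chromatin, had 1 peak in each library, in the last exon 603 nt downstream of the stop codon. Its fold enrichment was 17.9 and 11.4 in the controls and 61.8 and 148 in the starved libraries. The starved values were both well above the controls, with a log2 difference of 2.74 ± 0.76 (SE; limma, adjusted p = 0.466). This was the largest difference among the 4-library regions of chromatin genes. Kdm3b, another Jumonji demethylase, had 7.68 and 3.96 in the controls against 9.55 and 36.7 in an internal exon of 1249 nt, so the groups were separate but starved IP 1 was close to control IP 1. Kdm4a, the paralog of Kdm4b, had the opposite order in its 3′UTR, with 5.50 and 13.6 against 3.39 and 5.00, a log2 difference of -1.07 ± 0.76 (limma, adjusted p = 0.690), within the spread of these libraries.

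Other Kdm genes differed by the presence of a peak. Kdm2b, a CpG-island demethylase of a Polycomb complex, had a peak 98 nt past its stop codon in both starved libraries (14.6 and 10.99) and in neither control. Kdm5b, which removes methyl groups from active promoters, had one in an internal exon at 5.75 and 29.5. Kdm7a, a PHD-finger demethylase, was the strongest control-only region, with 157 and 113 in an internal exon of 268 nt. Kdm7a also had no peak elsewhere in the starved libraries. At the level of whole genes, Kdm6a alone among the 88 had peaks in both starved libraries and neither control (background 3.19% of genes), and Brd7, Kdm5d, Kdm7a and Sirt4 had peaks in both controls and neither starved library (background 4.56%). Kdm6a, the X-linked demethylase of the Polycomb mark, had 4 peaks in starved IP 1 and 1 in starved IP 2, and only the 3′UTR region, at 6.03 and 7, was shared. Kdm5d is Y-linked, and its single peak lay at a different place in each control library, at 42.6 and 34.9.

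The Kmt methyltransferases had 43 regions in 5 genes, and their peaks numbered 18 and 17 in the controls and 27 and 25 in the starved libraries. Kmt2d made up much of this, with 3 and 4 against 8 and 7. Over all genes the peaks averaged 9987 in the controls and 9365.5 in the starved libraries. The Kmt group was 1 of several families, and the sirtuins had fewer peaks after starvation. No family difference in the number of peaks was tested. A coding region of Kmt2d in an exon of 1141 nt was called in both starved libraries at 7.12 and 28.8 and in neither control. In Kmt2a, the coding region centred at -3864 nt from the stop codon had 28.9 and 16.9 in the controls and 6.26 and 12.2 after starvation, a log2 difference of -1.34 ± 0.74 (limma, adjusted p = 0.643). A second coding region of Kmt2a, which fills an internal exon of 2651 nt, was the strongest 4-library region of its family. It had 38.9 and 27.8 in the controls and 8.62 and 142 in the starved libraries, so that the starved replicates lay on either side of the controls. In the 3′UTR of the same mRNA, the region 3124 nt past the stop codon had 3.73 and 5.41 against 8.03 and 6.23. Regions of the same transcript were thus ordered in opposite ways.

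The Setd genes had 7 regions in all 4 libraries. Of these, 6 had a higher starved mean, 3 had both starved values above both controls and 0 had both below. Over all 4-library regions the shares were 54.2%, 22.9% and 18%. The median log2 difference of the 7 Setd regions was 0.62, beside 0.10 over all 4-library regions, and the departure from that background was not tested. Setd1a and Setd1b, catalytic subunits of the complexes that methylate histones at active promoters, each had a region of either kind. Setd1b had 6.53 and 10.2 in the controls and 20.8 and 26.5 in the starved libraries in an internal exon of 1209 nt, a log2 difference of 1.53 ± 0.70 (limma, adjusted p = 0.567). A second Setd1b region, of exactly the ends of a 350 nt exon, was called only in the starved libraries at 47.7 and 28.8. Setd1a had 4.80 and 12.8 against 17.2 and 19.7 in one coding region, and a starved-only peak at 19.7 and 40.4 in another. In the 4-library region of both genes the starved replicates were close to each other and above both controls. The Setd1a region merges several peaks, and its log2 difference of 1.23 fell to 0.62 with their mean in place of the highest.

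Setd2, which methylates histones along transcribed gene bodies, had 15.8 and 14.1 in the controls and 53.5 and 29.99 in the starved libraries in a coding exon of 663 nt. The log2 difference there was 1.42 ± 0.70 (limma, adjusted p = 0.602). The large exon of the same gene had a lower starved mean, with 41.5 and 19.2 against 27.1 and 12.7, and there the groups overlapped. Setdb1, which silences repeats, was the strongest of the group in all 4 libraries, at 27.5 and 35.6 against 35.6 and 53.0, and the groups overlapped narrowly. Setd7, a monomethyltransferase, had a starved-only 3′UTR peak at 41.2 and 3.63, whose replicates were far apart. Nsd1, which methylates histones in gene bodies and between genes, had 86.3 and 34.3 against 25.4 and 39.2 in an exon of 2560 nt, and the groups overlapped. Ezh2, the catalytic subunit of a Polycomb complex, had 1 region, at 3.57 in control IP 1 and 6.71 in starved IP 1, and Ezh1 had none.

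Lysine acetyltransferases had 38 regions in 9 genes, 6 of them in all 4 libraries (10.7% over all regions). Of the 6, 4 had both starved values above both controls and 0 had both below (22.9% and 18% over all 4-library regions). The median log2 difference of the 6 was 1.03, beside 0.10 over all 4-library regions. It was the highest of several families with few regions each, and the difference between families was not tested. Kat6a, a MYST acetyltransferase, carried the strongest 4-library region of all chromatin genes, a 600 nt internal exon with 96.3 and 102 in the controls and 211 and 150 in the starved libraries. The controls were close to each other and both starved values were above them, with a log2 difference of 0.84 ± 0.68 (limma, adjusted p = 0.718). Kat6b, its paralog, had 19.1 and 14.0 against 63.3 and 22.6. A second coding region of Kat6a, in the last exon, had 40.7 and 13.5 against 16.3 and 6.53, which overlapped.

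Kat2a, the acetyltransferase of the SAGA complex, had 12.9 and 5.01 in the controls and 27.1 and 18.9 in the starved libraries in its 3′UTR, a log2 difference of 1.49 ± 0.76 (limma, adjusted p = 0.607). Crebbp, a broad transcriptional coactivator, had 4.97 and 4.44 against 5.81 and 29.98, so the difference rested mostly on starved IP 2. Ep300, the paralog of Crebbp, had 1 and 0 peaks in the controls and 4 and 2 in the starved libraries. Its shared starved-only region lay in the coding sequence at 38.5 and 5.24. Kat8, a MYST enzyme of the MSL complex, had a starved-only coding region with closely matching values of 29.5 and 38.7. Kat5 and Kat7, which are also MYST enzymes, had control-only regions, Kat5 at 18.9 and 45.4 in a region that could not be placed on a transcript and Kat7 at 8.57 and 16.8 in the 5′UTR.

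Deacetylases had few peaks. The 5 zinc-dependent Hdac genes had 8 regions and 2, 3, 4 and 2 peaks in control IP 1, control IP 2, starved IP 1 and starved IP 2. No region of these genes was called in all 4 libraries, where the share over all regions was 10.7%. Of their 11 placed peaks, 2 lay in the CDS and 6 in the 3′UTR. Hdac7, a class II deacetylase, had a starved-only 3′UTR region at 6.09 and 8.31, and Hdac4, of the same class, a 3′UTR region at 23.6 in control IP 1 and at 10.3 and 21.97 in the starved libraries. The NAD-dependent sirtuins had 5 regions in 3 genes, with 4 and 2 peaks in the controls and 1 in each starved library. Sirt1, the nuclear sirtuin that is known to respond to nutrient state, had a region over its stop codon in all 4 libraries. Its values of 20.7 and 7.72 in the controls and 21.1 and 6.75 in the starved libraries gave each group a high and a low replicate, and the log2 difference was -0.083 ± 0.85 (limma, adjusted p = 0.981). Sirt4, a mitochondrial sirtuin, had its 2 peaks in the controls, at 41.9 and 111.

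Bromodomain proteins, which bind acetylated lysines, had 7 regions in all 4 libraries, 2 with both starved values above the controls and 1 with both below. Over all 4-library regions these shares were 22.9% and 18%. Brd9, a subunit of a SWI/SNF complex, had 72.1 and 130 in the controls and 20.5 and 17.99 in the starved libraries. Its region, chr13:73938865-73939218, was placed by the peak centre on a coding exon of 133 nt and is longer than that exon. Both starved values were far below both controls, a log2 difference of -2.33 ± 0.71 (limma, adjusted p = 0.466). Brd3, a protein with paired bromodomains, had a 3′UTR region at 21.8 and 28.5 against 35.4 and 48.9. A coding region of Brd3 had a lower starved mean with overlapping groups, at 75 and 63.7 against 26.1 and 83.7. Brd1 held the strongest 4-library region of the group, at 67.1 and 20.2 against 25.9 and 167, and its groups overlapped widely. Brd8 had a starved-only region at 52.5 and 9.20.

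CHD remodelers, which slide nucleosomes with a helicase-like motor and read histone methylation with chromodomains, had 47 regions in 8 genes. Of their 4 regions in all libraries 2 had both starved values below the controls (18% over all 4-library regions). Chd4, the motor of the NuRD corepressor, had 140 and 182 in the controls and 117 and 75.5 in the starved libraries over a coding exon of 206 nt, and all 4 peaks had exactly the ends of that exon. The log2 difference was -0.77 ± 0.70 (limma, adjusted p = 0.750). Chd1, which acts in elongation, had 57.8 and 119 against 46.4 and 21.4 in an exon of 226 nt, a log2 difference of -1.39 ± 0.77 (limma, adjusted p = 0.643). A 3′UTR region of Chd2 overlapped between groups, at 6.50 and 29.4 against 23.0 and 31.0, and a coding exon of Chd2 was called only in the starved libraries, at 6.32 and 22.9. Chd9 had a control-only region at 103 and 76.4, and it was also a whole exon.

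Genes named Smarc, which are related to SWI/SNF but do not all encode its subunits, had 27 regions in 9 genes. Of the 27, 19 were called in 1 library (56.2% over all regions). Smarca4, an ATPase of the SWI/SNF complex, had a whole coding exon of 263 nt called in all 4 libraries. Its values were 26.9 and 16.2 in the controls and 19.5 and 12.9 after starvation, and the groups overlapped. Smarcc1, a core subunit, had 9.74 and 11.2 against 5.08 and 10.8 in its 3′UTR, where the higher starved value lay between the controls.

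ARID proteins bind DNA, and several are large subunits of SWI/SNF complexes. They had 36 regions in 8 genes, 7 of them in all 4 libraries (10.7% over all regions), and some were higher and others lower after starvation. Arid1b, a SWI/SNF subunit that takes the same place in the complex as Arid1a, had 11.5 and 4.21 in the controls and 25.0 and 25.6 in the starved libraries in its last coding exon. The starved replicates were almost equal, and the log2 difference was 1.86 ± 0.76 (limma, adjusted p = 0.513). Arid1a had 14.2 and 13.7 against 29.7 and 16.7 in its last exon. A different exon of Arid1b, of 210 nt, was called only in the controls at 17.3 and 85.4.

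Arid4b, which binds the Sin3 corepressor, had 51.2 and 15.9 in the controls and 8.16 and 6.81 in the starved libraries in a coding exon of 1215 nt. The log2 difference was -1.94 ± 0.79 (limma, adjusted p = 0.513). Another coding region of Arid4b was called only after starvation, at 13.9 and 211, and these replicates were far apart. Arid4a, its paralog, had a control-only region at 50.1 and 72.8. Arid2, a subunit of the PBAF form of SWI/SNF, had a whole exon of 210 nt at 18.3 and 43.6 against 132 and 21.6, where starved IP 1 alone stood apart.

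The Asxl scaffolds, which activate a histone H2A deubiquitinase, had 9 regions in the genes Asxl1 and Asxl2. Each of the 3 regions in all 4 libraries had a lower starved mean, as did 1034 of all 2257 such regions. Their median log2 difference was -0.78, beside 0.10 over all 4-library regions. In 1 of the 3 both starved values lay below both controls (18% over all 4-library regions). That region, an Asxl1 coding exon of 625 nt, had 12.1 and 22.7 in the controls and 10.7 and 8.65 in the starved libraries (log2 difference -0.78 ± 0.71, limma, adjusted p = 0.750). Asxl2 had 39.8 and 24.2 against 17.9 and 25.4 in its last exon, and a control-only coding region at 36.4 and 45.4. Asxl1 also had a weak starved-only 3′UTR region, at 4.10 and 5.86.

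**Figure D5:**
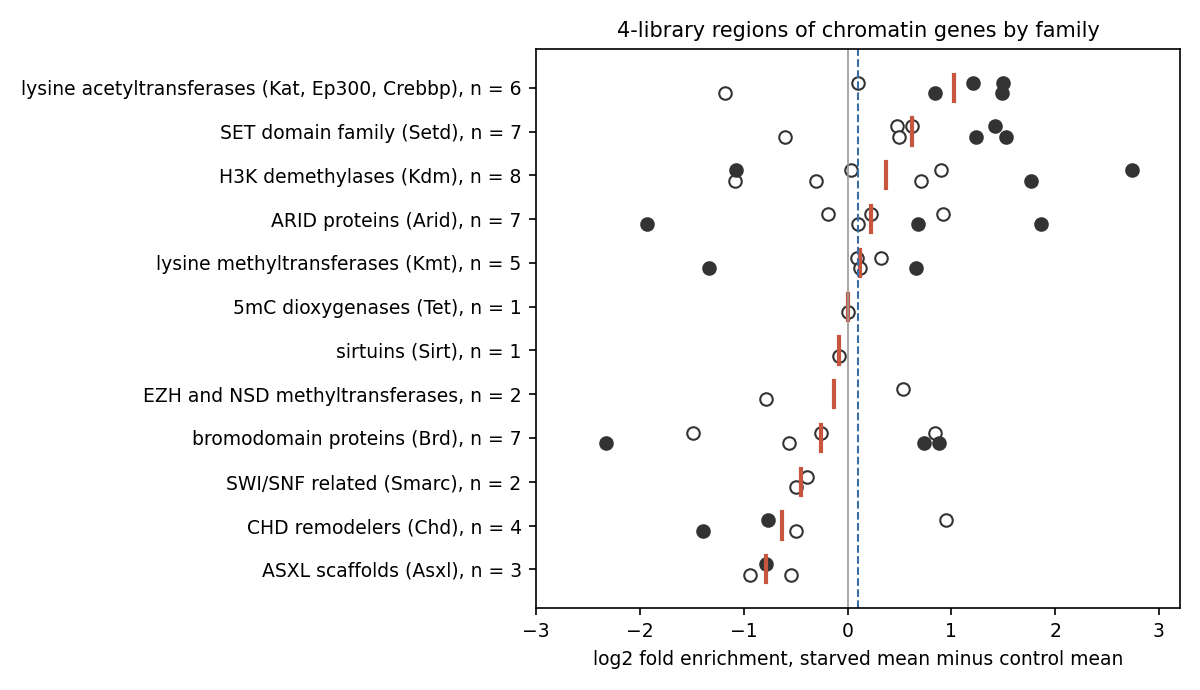
Difference of mean log2 fold enrichment, starved minus control (x axis), for each of the 53 chromatin gene regions with a peak in all 4 libraries, by family (y axis). Filled circles are regions whose groups do not overlap, red bars are family medians and the dashed blue line is the median of all 2257 such regions at 0.10. Family medians run from -0.78 (Asxl, 3 regions) to 1.03 (acetyltransferases, 6 regions).

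Genes of DNA methylation had 7 Dnmt and 12 Tet regions. Only 1 of these was called in all 4 libraries, in Tet3 (10.7% over all regions). Dnmt1, the maintenance methyltransferase, had 2, 3, 2 and 1 peaks, and 2 of its coding regions were called in 3 libraries. One had 9.18 and 16.4 in the controls and 7.76 in starved IP 2, and the other had 15.4 and 6.77 in the controls and 4.34 in starved IP 1. Dnmt3a, a de novo methyltransferase, had 1 peak in each library, and the only one shared was a 3′UTR region of the starved libraries at 14.6 and 11.5. Both starved values were thus similar, while the control peaks lay elsewhere in the 3′UTR. Tet3, which oxidizes methylcytosine, had 9 regions and 4, 4, 2 and 5 peaks. Its 4-library coding region had 19.0 and 20.4 in the controls and 10.0 and 39.1 in the starved libraries, a log2 difference of 0.0076 ± 0.82 (limma, adjusted p = 0.999). Tet3 also had 2 control-only regions, at 6.91 and 21.9 in the 3′UTR and at 51.7 and 7 in the CDS. Tet2, its relative, had a coding region called at 33.0 in control IP 1 and at 215 in starved IP 1.

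Partners of these proteins from 7 lists (Polycomb, COMPASS and other methyltransferase partners, corepressors and NuRD, acetyltransferase partners, SWI/SNF partners, ISWI and INO80 families, DNA methylation readers) had a peak for 113 of 131 symbols, some of which are an older and a newer name of the same gene. Of their 328 regions, 44 were in all 4 libraries, with 6 above and 9 below without overlap (13.6% and 20.5%, against 22.9% and 18% of all) and a median log2 difference of 0.013. They had 14 starved-only and 22 control-only regions (4.27% and 6.71%, against 3.2% and 4.15% of all). The medians by list ran from -0.89 for Polycomb subunits, with 3 such regions, to 0.85 for SWI/SNF partners, with 1. For COMPASS partners the median was 0.029 (11 regions), for corepressors -0.11 (5), for acetyltransferase partners 0.21 (13), for ISWI and INO80 -0.038 (9) and for DNA methylation readers -0.26 (2). Jarid2, a Polycomb cofactor, had 75.5 and 48.9 in the controls and 13.8 and 27.0 in the starved libraries (log2 difference -1.66 ± 0.73, limma, adjusted p = 0.567). Among partner regions without overlap, the largest difference was in Ing2, an acetyltransferase partner, at 30.1 and 70.6 against 8.49 and 7.17. Its log2 difference was -2.56 ± 0.74 (limma, adjusted p = 0.466). The largest in the other direction was in Kansl3, of the same list, at 18.9 and 3.96 against 26.15 and 22.4. There the log2 difference was 1.48 ± 0.87 (limma, adjusted p = 0.649). These lists did not pass the test in any region at an adjusted p of 0.05 either.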

How the data were processed

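MeRIP-seq peak lists of 4 IP libraries (2 per group) were used, and the input libraries entered only through them. The authors trimmed reads, aligned them to mm10 with HISAT2 2.0.4, called peaks with MACS2 in each IP library over its own input, kept peaks on mRNA exons and did not pool replicates. The column names are those of an earlier MACS. The deposited fold enrichment is a ratio of IP over local input signal. The deposited score is minus 10 times log10 of the p-value and stops at about 3100. The deposited FDR in percent was not used. A deposited table of the authors' own fold changes and p-values between groups was not used.

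Here, peaks sharing 1 bp were merged, taking the highest fold enrichment of a library in a region. Peaks were placed on GENCODE M21 transcripts by their centre, and 3.74% of control and 3.78% of starved chromatin gene peaks could not be placed (7.36% and 6.86% of all peaks). Symbols follow the lists, so a gene filed under another name was not counted. For library values, a two-sided exact permutation test over the 4 libraries was used. Regions in all 4 libraries were tested with limma 3.58.1 on log2 fold enrichment, without trend, adjusted over 2257 regions. On simulated data this test missed changes of the size of most differences reported here. A lack of calls therefore cannot show that regions stayed the same. Named regions were all one-group regions (at most 12 a direction, by mean fold enrichment), the 8 largest non-overlapping differences a direction, any past limma's threshold, the 5 genes with most regions, and the strongest 4-library region of each family. Regions named beyond these were chosen after their values were seen. Alternatives were a score of at least 100, lists of equal length, merging on 100 bp, centring, the mean of several peaks, limma's trend, a replicate block, a 200 nt stop codon window, DRACH, and each library left out. The members and lists were chosen with earlier results of these data known. Python 3.11.15, pandas 2.3.3 and R 4.3.3 were used.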

Additional observations from a re-analysis of the deposited data

How the results depend on the processing

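With 2 libraries per group and unknown depth, a peak that was not called cannot be told from one below the caller's threshold. The difference in chromatin gene peaks ran from -3 to 23 over the 4 fits that left out 1 library, the log2 difference of median fold enrichment from 0.067 to 0.15, the GGAC difference from 1.94 to 5.80 percentage points and the stop codon difference from -1.44 to 0.71, and it was -2.84 with a window of 200 nt. With lists of equal length the log2 difference was -0.045, and with DRACH in place of GGAC the difference was -1.63 percentage points. Leaving out a library also loosens the rule for one-group and non-overlapping regions by construction: starved-only regions then numbered 23 to 80, control-only regions 16 to 62, regions above 19 to 24 and regions below 12 to 18 (of all regions, 5.86% to 17.4%, 6.98% to 18.9%, 35% to 40% and 29.1% to 35.4%), with 0 limma calls in chromatin genes each time. Without starved IP 1 and starved IP 2 there were 60 and 80 starved-only regions, and without control IP 1 and control IP 2 there were 62 and 55 control-only regions. Centring raised the regions below to 13 (24.5%, against 23.4% of all). Leaving out peaks equal to a whole exon, an alternative chosen after seeing the data, left 308 regions of chromatin genes and 39 in all 4 libraries. The regions below then numbered 4, with 15 starved-only, 6 control-only and 13 above (of all regions, 17%, 3.18%, 4.03% and 23%). Without the sex chromosomes, also chosen after seeing the data, there were 15 starved-only and 9 control-only regions. No share over all regions is given for that setting, so these counts cannot be set against a background. The log2 difference of 5 named regions, all with overlapping groups, changed sign with the library left out: Sirt1 ran from -0.90 to 0.74, Brd1 from -0.51 to 2.18, Arid2 from -0.39 to 2.22, Tet3 from -0.97 to 0.99 and Kmt2a (the 2651 nt exon) from -1.93 to 2.11. Of the other 20, 15 kept their sign but moved by over 1.5 times, such as Crebbp (0.31 without starved IP 2), Nsd1 (-0.12) and Smarca4 (-0.029) without control IP 1, and Kat2a (0.81), Asxl1 (-0.32) and Kdm4a (-0.42) without control IP 2; Brd9, Kat6a, Kdm4b, Setd1b and Setd2 did not. Centring took Tet3 to -0.20 and Kmt2a to -0.12. The mean of several peaks took Kmt2a to -1.14, Setd1a from 1.23 to 0.62 and Kdm3b from 1.76 to 1.09. The cause was not tested. The window at a summit was not run, because the lists used here give no summit.

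Replicate numbers 1 and 2 occur in both groups, but deviations of same-numbered libraries had a correlation of -0.017 over 2257 regions, so the numbers were not taken as pairs. With the replicate block, limma passed 7 of 2257 regions and 0 of the 53 of chromatin genes, and the exact sign-flip p was 0.5 for median fold enrichment and GGAC and 1 for the number of peaks and the stop codon share. Over all regions, 2 passed with a score of at least 100, with lists of equal length, with centring, with the mean of several peaks and with limma's trend, and none of these was in a chromatin gene.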

Other observations

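Some peaks had exactly the ends of an annotated exon. They made up 21.6% and 19.2% of chromatin gene peaks in the controls and 20.8% and 15.2% in the starved libraries, a mean of 20.4% ± 1.70 against 18.01% ± 3.97 (SD, n = 2; two-sided exact permutation test, p = 0.667). Over all peaks the shares were 12.1%, 12.7%, 13.6% and 12.05%. Among peaks in internal exons, which are a larger part of the chromatin gene peaks, the shares were 37.1%, 32.6%, 31.7% and 25.5% for chromatin genes and 32.4%, 33.3%, 35.2% and 31.7% for all. The shortest peak in the lists spans 200 bp, and 54.1% to 57.4% of chromatin gene peaks had at least 1 end at an exon end, against 47.2% to 51.9% of all peaks. Whole-exon peaks of chromatin genes had a median fold enrichment of 15.8 and the others 12.9, where all peaks had 13.6 and 13.3. In such a peak the centre is the middle of the exon, so the motif window follows the exon and not the signal within it.

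On the Y chromosome, Uty, a paralog of Kdm6a that is not in the list of chromatin genes used here, had coding peaks at 10.6 in control IP 1 and at 135 in starved IP 1, at different places.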
